A study of Prunus persica with 84 samples.

Results

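PRUPE_DAM1, PRUPE_DAM2 and PRUPE_DAM3 are 3 dormancy-associated MADS-box (DAM) genes of peach, followed here in floral buds through chilling and warming. They were taken by name, as 3 of the 26879 genes of the count table, and they hold fewer reads than the other 3 genes that the table names as DAM. All 3 passed the filter on low counts, as did 21168 genes in all. Over the 84 libraries they held 2675, 511 and 4560 reads, where PRUPE_DAM4, PRUPE_DAM5 and PRUPE_DAM6 held 278126, 30828 and 52395.

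The buds came from John Boy (JB) and from KV021779 (LP), genotypes that the study compared because they flower at different times. All groups were buds on cut shoots that stood in water. Chilling groups were sampled after 0, 100, 200, 400, 600, 800 and 1000 h at 4 °C. Warm groups had all 1000 h of chilling and were then sampled after 1, 4, 8, 12, 16 and 20 d at 22 °C, with 24 and 28 d added for LP. Each course ended at the start of bloom, 20 d for JB and 28 d for LP. Each of the 28 groups held 3 libraries, and nothing in the labels says whether these came from separate trees or shoots, so p-values below reflect only the variation among libraries, which may be technical.

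Totals were 8021919 to 26346177 counts per library in JB and 8823829 to 16989188 in LP. Replicate libraries had correlations of log2 CPM across genes of 0.966 to 0.995, with the lowest values in JB 12 d and LP 28 d, each through replicate 3. The other identifiers are not paired with gene names, so the bud tissue could not be checked against its markers. In whole buds, fewer cells of a type and less RNA per cell cannot be told apart.

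DAM genes encode MIKC-type MADS-box transcription factors related to SVP, a repressor of flowering in Arabidopsis. They lie in a tandem row in the peach genome, and the evergrowing peach mutant, which does not stop growing or set dormant buds, carries a deletion in that row. In peach, DAM5 and DAM6 are the members best known for falling as buds meet their chilling requirement. Since the copies are alike and the counting tool is not given in the sources used here, reads could have been split between them, and levels below are compared within a gene, apart from the shares of reads given near the end. Levels are counts scaled to library size (CPM), and a change was called at an adjusted p under 0.05.

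PRUPE_DAM1 fell during chilling in both genotypes and rose again at 22 °C. PRUPE_DAM2 held few reads until it rose in the warm, within 1 d in JB and at 28 d in LP. PRUPE_DAM3 fell within 1 d of warming in both genotypes and at the start of bloom did not differ from 1000 h past the threshold in either.

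**Figure D1:**
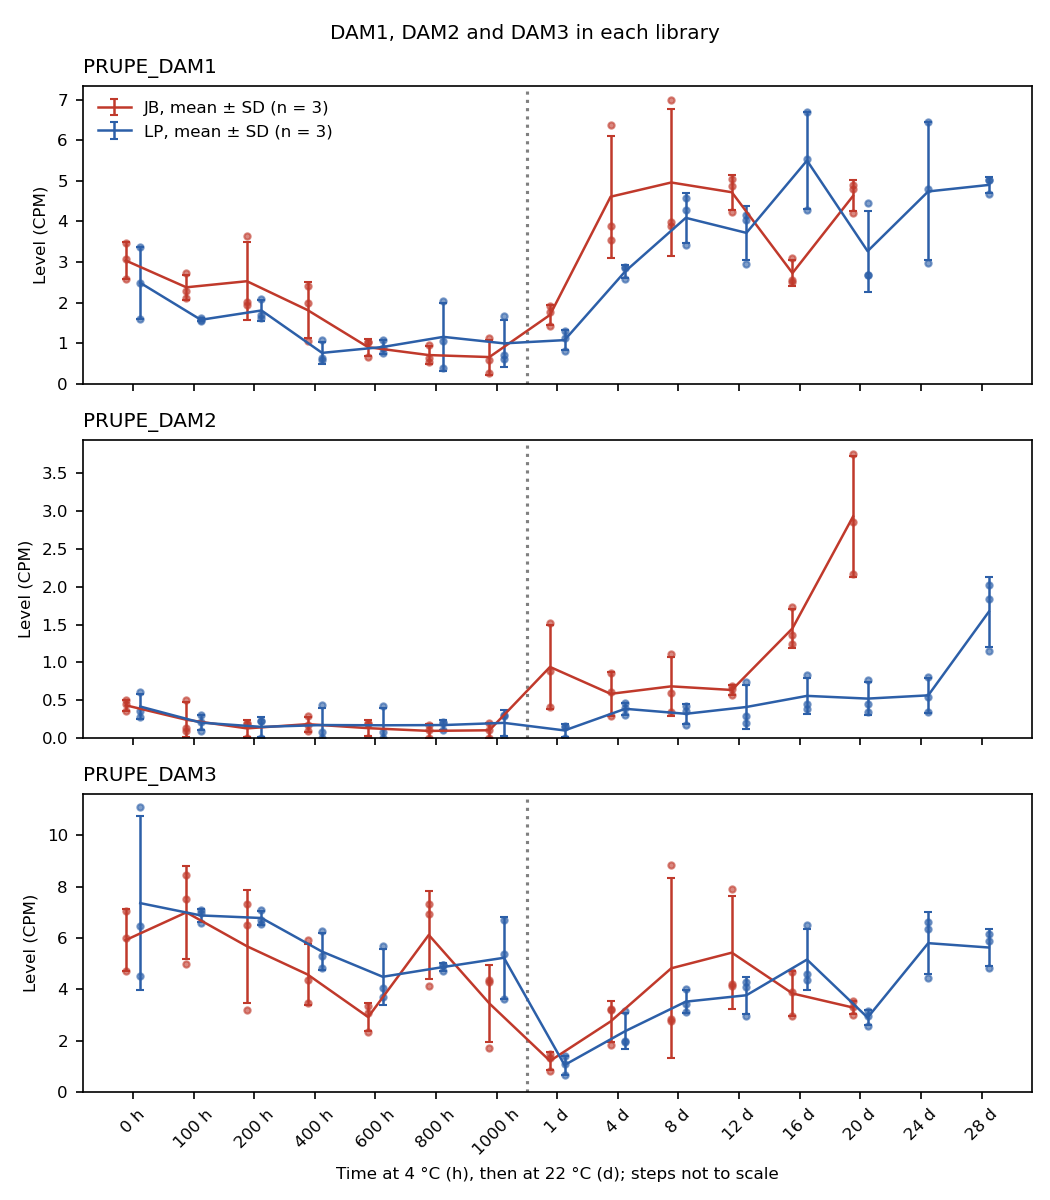
CPM of PRUPE_DAM1, PRUPE_DAM2 and PRUPE_DAM3 (y axis, CPM) against time at 4 °C in h and then at 22 °C in d (x axis, steps not to scale). Points are single libraries, and lines with bars give the mean ± SD of 3, with JB and LP in separate colours. PRUPE_DAM2 reached 2.93 CPM in JB at 20 d and 1.67 in LP at 28 d, and PRUPE_DAM3 had its lowest mean in each genotype at 1 d.

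In both genotypes PRUPE_DAM1 was lower after 1000 h of chilling than before it. Its 3 JB libraries had 3.47, 3.07 and 2.58 CPM at 0 h, from 35, 26 and 23 reads, and 0.282, 1.12 and 0.584 CPM at 1000 h, from 3, 10 and 6 reads. The libraries of the 2 times did not overlap, and the log2 change was −2.24 ± 0.42 (± SE, here and for all log2 values, adjusted p = 4.5e-06 by edgeR's quasi-likelihood test). In LP the libraries had 1.60, 3.38 and 2.48 CPM at 0 h and 0.619, 0.724 and 1.67 CPM at 1000 h. Here the highest library at 1000 h, replicate 3, lay just above the lowest at 0 h, and the change was −1.15 ± 0.37 (adjusted p = 0.00637). Without replicate 2 of every group the LP value was −0.75 and missed the threshold (adjusted p = 0.176).

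The first chilling time at which PRUPE_DAM1 was called below 0 h was 600 h in JB and 400 h in LP. In JB its mean was 1.82 ± 0.70 CPM (SD, n = 3) at 400 h and 0.906 ± 0.21 CPM at 600 h, a log2 change from 0 h to 600 h of −1.72 ± 0.34 (adjusted p = 1.56e-05). In LP it was 1.81 ± 0.26 CPM at 200 h and 0.766 ± 0.27 CPM at 400 h, a log2 change from 0 h to 400 h of −1.63 ± 0.39 (adjusted p = 0.000261). At 400 h itself the LP level was below the JB level by a log2 difference of −1.30 ± 0.39 (adjusted p = 0.00439), with the lowest JB library, at 1.05 CPM, among the LP libraries. That difference rested on JB 400 h replicate 1 (54 reads), and without it was −0.96 (adjusted p = 0.101). From 600 h to 1000 h the means stayed between 0.663 and 1.16 CPM in both genotypes.

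In the warm PRUPE_DAM1 rose. One day at 22 °C took JB from the levels above to 1.43, 1.91 and 1.77 CPM, all above its 3 libraries at 1000 h, a log2 change of 1.40 ± 0.45 (adjusted p = 0.00585). Without JB 1000 h replicate 1 this was 1.02 (adjusted p = 0.0674). In LP the libraries at 1 d had 1.31, 1.12 and 0.807 CPM, within the range at 1000 h, and the log2 change was 0.01 ± 0.42 (adjusted p = 1). The difference between these changes in LP and JB, −1.39 ± 0.62, did not pass (adjusted p = 0.0689), though it did without JB 1000 h replicate 2 (−1.95, adjusted p = 0.0231) or LP 1000 h replicate 1 (−1.63, adjusted p = 0.0383).

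From 1 d to 4 d PRUPE_DAM1 rose in both genotypes, by 1.42 ± 0.30 in JB (adjusted p = 0.000112) and 1.35 ± 0.33 in LP (adjusted p = 0.000963) on the log2 scale. At 4 d the JB libraries had 3.90, 3.55 and 6.37 CPM and the LP libraries 2.57, 2.88 and 2.86 CPM. All LP libraries lay below all JB libraries, with a log2 difference of −0.73 ± 0.27 (adjusted p = 0.0204). Without JB 4 d replicate 3, the highest library, it was −0.42 (adjusted p = 0.265), and without LP 4 d replicate 1 it was −0.68 (adjusted p = 0.0597).

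Later in the warm PRUPE_DAM1 dipped at 16 d in JB, and in LP it was lower at 20 d than at 16 d. JB had means of 4.96 ± 1.8 CPM at 8 d, 4.72 ± 0.43 at 12 d, 2.73 ± 0.32 at 16 d and 4.63 ± 0.38 at 20 d (SD, n = 3). At 16 d its 3 libraries, at 3.1, 2.52 and 2.57 CPM, lay below all those at 12 d and at 20 d. The fall from 12 d was −0.78 ± 0.28 (adjusted p = 0.0138) and the rise to 20 d 0.76 ± 0.28 (adjusted p = 0.0163) on the log2 scale. Without replicate 2 of every group neither passed (−0.81 with adjusted p = 0.0571, and 0.77 with adjusted p = 0.0655), nor did the rise without replicate 3 of every group (0.70, adjusted p = 0.0521). At that time LP was at 5.53, 6.70 and 4.27 CPM, above all JB libraries, with a log2 difference of 1.00 ± 0.27 (adjusted p = 0.00101). Without replicate 2 of every group it was 0.78 (adjusted p = 0.0531). The LP libraries at 20 d had 2.69, 4.45 and 2.68 CPM, which overlapped those at 16 d, and the fall of −0.73 ± 0.27 (adjusted p = 0.0273) was lost without LP 16 d replicate 1 or 2 or LP 20 d replicate 1 or 3 (adjusted p from 0.0592 to 0.153). The LP change from 20 d to 24 d was 0.50 ± 0.27, with overlapping libraries, and did not pass (adjusted p = 0.192).

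At the start of bloom the PRUPE_DAM1 levels of the genotypes overlapped. JB libraries at 20 d had 4.90, 4.20 and 4.80 CPM, and LP libraries at 28 d had 4.66, 5.02 and 5.01 CPM. The log2 difference was 0.08 ± 0.26 (adjusted p = 0.806). From 1000 h to its own bloom the gene rose by 2.83 ± 0.39 in JB (adjusted p = 1.07e-09) and by 2.18 ± 0.33 in LP (adjusted p = 2.57e-08) on the log2 scale.

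PRUPE_DAM2 was near its counting limit throughout chilling. In the 42 chilling libraries it had 0 reads in 8, and none reached 0.872 CPM, the level behind the filter on low counts. In the warm 13 of 42 libraries did. The gene thus passed the filter through warm libraries alone, so a rise to those libraries is partly built into its being tested. In JB the reads were 5, 3 and 4 at 0 h and 0, 1 and 2 at 1000 h, pooled levels of 0.437 CPM (95% Poisson interval 0.226 to 0.763) and 0.101 CPM (0.0208 to 0.294), intervals that cover counting error only. The log2 change of −2.01 ± 0.97 did not pass (adjusted p = 0.0679), though it did without JB 1000 h replicate 3 (−2.86, adjusted p = 0.0499). At 800 h, with 0, 2 and 1 reads, PRUPE_DAM2 was called below 0 h in JB, with a log2 change of −2.30 ± 0.96 (adjusted p = 0.033). That call was lost without JB 800 h replicate 1 (−1.54, adjusted p = 0.194), JB 0 h replicate 1 (−2.18, adjusted p = 0.0868) or JB 0 h replicate 3 (−2.27, adjusted p = 0.0612). In LP the reads were 8, 3 and 4 at 0 h and 3, 0 and 4 at 1000 h, and the log2 change was −0.96 ± 0.78 (adjusted p = 0.311).

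On the first warm day PRUPE_DAM2 rose in JB, and its reads in LP stayed few. JB had 17, 5 and 10 reads at 1 d, or 1.52, 0.416 and 0.886 CPM, and each library lay above all 3 at 1000 h. The log2 change was 3.08 ± 0.80 (adjusted p = 0.000661). LP had 2, 0 and 2 reads at 1 d, or 0.154, 0 and 0.147 CPM, against 3, 0 and 4 at 1000 h, a log2 change of −1.13 ± 1.01 (adjusted p = 0.339). The pooled levels at 1 d were 0.927 CPM in JB (95% Poisson interval 0.634 to 1.31) and 0.0901 CPM in LP (0.0245 to 0.231).

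The LP level of PRUPE_DAM2 at 1 d was below that of JB by a log2 difference of −3.22 ± 0.73 (adjusted p = 0.000196), a call that held in all alternatives tried. The change from 1000 h to 1 d differed between the genotypes by −4.22 ± 1.36 (LP minus JB, adjusted p = 0.00998), a comparison added after the data were seen. Without LP 1000 h replicate 3 that difference was −3.80 (adjusted p = 0.0737), and without replicate 1 of every group it was −3.22 (adjusted p = 0.178). The JB rise itself was 1.99 (adjusted p = 0.0915) without replicate 1 of every group.

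From 4 d to 12 d JB had PRUPE_DAM2 means between 0.584 and 0.683 CPM, and then the gene rose in 2 further steps. Its libraries had 0.650, 0.565 and 0.689 CPM at 12 d, 1.36, 1.74 and 1.25 CPM at 16 d, and 2.17, 2.86 and 3.75 CPM at 20 d, with no overlap between the times. The steps were 1.18 ± 0.50 (adjusted p = 0.0365) and 1.01 ± 0.38 (adjusted p = 0.0163) on the log2 scale. The first missed the threshold with DESeq2 (1.17, adjusted p = 0.0587) and with no low-count filter (1.14, adjusted p = 0.0547). It also missed it without any single library of JB 12 d and without JB 16 d replicate 1 or 2 (adjusted p from 0.0515 to 0.114). The second missed it without JB 16 d replicate 3 (0.92, adjusted p = 0.0581) or JB 20 d replicate 3 (0.80, adjusted p = 0.0974).

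In LP the means of PRUPE_DAM2 ran from 0.320 to 0.564 CPM between 4 d and 24 d. At 24 d its libraries had 0.803, 0.547 and 0.344 CPM, and at 28 d 1.83, 2.03 and 1.16 CPM, from 22, 23 and 12 reads. The 2 times did not overlap, and the log2 change was 1.50 ± 0.47 (adjusted p = 0.00523). Without replicate 2 of every group it was 1.31 (adjusted p = 0.0544). The change from 1000 h to 28 d was 2.94 ± 0.60 (adjusted p = 1.25e-05).

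Over the 6 shared warm times LP had the lower PRUPE_DAM2 mean at all 6, and every LP library lay below every JB library at 1, 16 and 20 d. The mean log2 difference was −1.55 ± 0.25 (adjusted p = 9.91e-08). All JB libraries at 16 and 20 d exceeded 0.872 CPM, the level behind the filter, which the gene passed through warm libraries alone. Its genotype differences in the warm, above and below, are thus partly built into its being tested, like the rise. At 16 d it was −1.38 ± 0.49 (adjusted p = 0.0119), and it missed the threshold without LP 16 d replicate 3 (−1.16, adjusted p = 0.0635) or without replicate 1 of every group (−1.31, adjusted p = 0.0641). At 20 d it was −2.45 ± 0.46 (adjusted p = 2.44e-06), a call that held in all alternatives tried. The change from 1000 h to 20 d differed by −3.45 ± 1.22 (adjusted p = 0.0127), and missed the threshold without LP 1000 h replicate 1 (−3.15, adjusted p = 0.0572) or replicate 3 (−3.03, adjusted p = 0.0989), and without replicate 1 or 3 of every group (−2.48 and −3.59, adjusted p = 0.175 and 0.0951). With each genotype at its start of bloom, LP at 28 d and JB at 20 d, the ranges did not overlap, and the log2 difference of −0.79 ± 0.37 did not pass (adjusted p = 0.0626). It passed without JB 20 d replicate 1 (−0.96, adjusted p = 0.0382).

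PRUPE_DAM3 was lower after chilling in JB, and its change in LP did not pass. Its JB libraries had 7.05, 6.01 and 4.71 CPM at 0 h and 1.69, 4.37 and 4.28 CPM at 1000 h, without overlap. The log2 change was −0.80 ± 0.35 (adjusted p = 0.0385), and it rested on JB 1000 h replicate 1, whose 18 reads were the fewest of the chilling libraries for this gene. Without that library it was −0.46 (adjusted p = 0.294), without JB 0 h replicate 1 −0.65 (adjusted p = 0.159), and without JB 0 h replicate 2 −0.79 (adjusted p = 0.0708). In between, JB libraries had 3.37, 2.32 and 3.08 CPM at 600 h and 4.11, 7.31 and 6.94 CPM at 800 h, all above those at 600 h. The fall from 0 h to 600 h was −1.06 ± 0.32 (adjusted p = 0.00372), and missed the threshold when replicate 2 of every group was left out (−0.87, adjusted p = 0.0766). The rise to 800 h was 1.06 ± 0.31 (adjusted p = 0.0196), lost without JB 600 h replicate 2 or JB 800 h replicate 2 or 3 (adjusted p from 0.088 to 0.143). The LP libraries had 4.50, 11.1 and 6.48 CPM at 0 h and 6.71, 3.62 and 5.38 CPM at 1000 h, which overlapped, and the log2 change was −0.43 ± 0.30 (adjusted p = 0.235). It was −0.89 without replicate 1 of every group (adjusted p = 0.0148) and 0.12 without replicate 2 (adjusted p = 0.848).

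After 1 d at 22 °C PRUPE_DAM3 had fallen in both genotypes. JB had 0.803, 1.50 and 1.33 CPM, from 9, 18 and 15 reads, a log2 change from 1000 h of −1.48 ± 0.44 (2.79-fold lower, adjusted p = 0.00285). LP had 1.08, 1.40 and 0.660 CPM, from 14, 25 and 9 reads, a log2 change of −2.28 ± 0.39 (4.84-fold lower, adjusted p = 5.72e-07). In each genotype all libraries at 1 d lay below all at 1000 h, and both calls held in all alternatives tried. The difference between the genotypes' falls, −0.80 ± 0.62, did not pass (adjusted p = 0.33).

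PRUPE_DAM3 then rose from 1 d to 4 d by 1.15 ± 0.45 in JB (adjusted p = 0.0394) and 1.12 ± 0.43 in LP (adjusted p = 0.0436) on the log2 scale. The JB libraries had 3.24, 1.82 and 3.19 CPM at 4 d and the LP libraries 1.97, 1.97 and 3.17 CPM, all above those at 1 d. Each rise missed the threshold without some single libraries. In JB these were 1 d replicates 1 and 3 and 4 d replicates 1 and 3 (adjusted p from 0.0689 to 0.156), and in LP 1 d replicates 1 and 3 and 4 d replicate 3 (adjusted p from 0.0862 to 0.215). At 4 d LP was still below its 1000 h level, by −1.16 ± 0.34 (adjusted p = 0.00245), and JB had a log2 difference of −0.33 ± 0.38 (adjusted p = 0.457).

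Later warm levels of PRUPE_DAM3 were uneven between libraries. At 8 d the JB libraries had 8.86, 2.75 and 2.84 CPM, and replicate 1, with 119 reads, was also the highest of the 3 for PRUPE_DAM1, at 7 against 3.99 and 3.88 CPM. At 12 d they had 4.23, 4.14 and 7.92 CPM, where the high one is the library whose profile stands apart. In LP the means were 5.16 ± 1.2 CPM at 16 d, 2.90 ± 0.29 at 20 d, 5.80 ± 1.2 at 24 d and 5.63 ± 0.71 at 28 d (SD, n = 3). All LP libraries at 20 d were below all those at 16, 24 and 28 d. The log2 change from 16 d to 20 d, −0.82 ± 0.34, did not pass (adjusted p = 0.0558). The rise from 20 d to 24 d was 0.97 ± 0.34 (adjusted p = 0.0259), lost without any one library of LP 20 d or without LP 24 d replicate 2 or 3 (adjusted p from 0.0524 to 0.0883). Against 1000 h the LP level at 20 d was lower by a log2 change of −0.85 ± 0.34 (adjusted p = 0.0253). That call was lost without LP 1000 h replicate 1 (−0.66, adjusted p = 0.128) or replicate 3 (−0.83, adjusted p = 0.0607) and without LP 20 d replicate 3 (−0.78, adjusted p = 0.0745).

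At the start of bloom PRUPE_DAM3 had log2 changes from 1000 h of −0.05 ± 0.37 in JB (adjusted p = 0.909) and 0.10 ± 0.31 in LP (adjusted p = 0.785). JB libraries had 3.01, 3.31 and 3.55 CPM at 20 d and LP libraries 4.83, 5.90 and 6.17 CPM at 28 d, without overlap. The log2 difference was 0.77 ± 0.34 (adjusted p = 0.0427), and leaving out any one of the 6 libraries except LP 28 d replicate 1 ended the call (0.71 to 0.83, adjusted p from 0.0612 to 0.108).

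The calls of the 3 genes can be read against those of all 21168 genes tested. A joint test over the chilling times called PRUPE_DAM1 in both genotypes (adjusted p = 3.5e-08 in JB and 0.00113 in LP) and PRUPE_DAM3 in JB (adjusted p = 0.00159). It called 80.6% of all genes in JB and 69.2% in LP. PRUPE_DAM2 missed it in both (adjusted p = 0.188 and 0.66), as did PRUPE_DAM3 in LP (adjusted p = 0.221). Over 1000 h and the warm times all 3 genes were called in both genotypes, where 95.1% of all genes were called in JB and 92.9% in LP.

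By direction, 2 of the 3 genes were lower in JB at 600, 800 and 1000 h than at 0 h, against 31.5%, 30.7% and 31.8% of all genes. They were PRUPE_DAM1 and PRUPE_DAM3 at 600 and 1000 h, and PRUPE_DAM1 and PRUPE_DAM2 at 800 h. In LP 1 of 3 was lower at 400 h and at 1000 h, against 25.9% and 26.9%. At 1 d against 1000 h all 3 were called in JB, 2 higher and 1 lower, and 1 was called in LP, lower, where 61.4% and 62.5% of all genes were called in either direction. PRUPE_DAM2, 1 of the 2 higher in JB, passed the filter through warm libraries alone. Between 600 h and 800 h 1 of 3 was higher in JB, against 4.37%. From 1 d to 4 d 2 of 3 were higher in each genotype, against 16.9% in JB and 14.7% in LP, and at 4 d against 1000 h 1 was higher and 1 lower in LP, where 66.3% were called.

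Among the late steps, 2 of 3 were called at 16 d against 12 d in JB (62.2% of all genes), and 2 of 3 were higher at 20 d than at 16 d (28.8%). In LP 1 of 3 was lower at 20 d than at 16 d (15.6%), 1 higher at 24 d than at 20 d (13%) and 1 higher at 28 d than at 24 d (27.7%). Against 1000 h, 2 of 3 were higher at 20 d in JB (37.2%) and at 28 d in LP (37.8%), and at 20 d in LP 1 was higher and 1 lower (65.9% called in either direction). In both counts of 2, 1 was PRUPE_DAM2, which passed the filter through warm libraries alone. Its place in these counts, and in the warm medians below, is thus partly built in. The median log2 change of the 3 genes was −2.01 over chilling in JB and −0.96 in LP. Both are the values of PRUPE_DAM2, which rest on few reads and did not pass. PRUPE_DAM1 changed by −2.24 and −1.15 there, and PRUPE_DAM3 by −0.80 and −0.43. From 1000 h the median was 2.83 to 20 d in JB and 2.18 to 28 d in LP, both the values of PRUPE_DAM1. Over all genes tested the medians were 0, 0, −0.03 and 0.02. The scaling of counts holds such medians near 0, so they do not measure how unusual the 3 genes were.

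**Figure D2:**
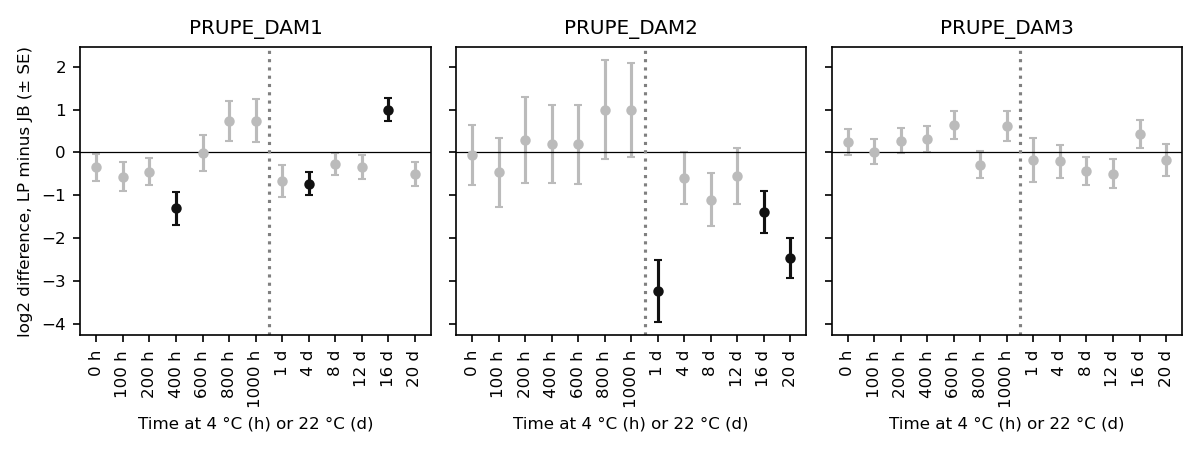
Log2 difference LP minus JB of PRUPE_DAM1, PRUPE_DAM2 and PRUPE_DAM3 (y axis, log2) at each of the 13 shared times (x axis, h at 4 °C and then d at 22 °C). Bars are standard errors derived from edgeR's F statistic. The PRUPE_DAM2 difference was below 0 at all 6 warm times. That of PRUPE_DAM1 was below 0 at 5 of them, with −0.73 at 4 d and −0.49 at 20 d, and was 1.00 at 16 d. Of those 5 only the difference at 4 d was called.

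Genotype differences at a single time were called at 3 times each for PRUPE_DAM1 (400 h, 4 d and 16 d) and PRUPE_DAM2 (1, 16 and 20 d) and none for PRUPE_DAM3. With 1 of the 3 called, the share of all genes called was 42.8% at 400 h, 40.3% at 1 d, 51.9% at 4 d and 71.9% at 20 d. It was 64.3% at 16 d, where 2 of 3 were called. Where none of the 3 was called it was 42.9, 41.6, 48.2, 45.7, 39.5 and 45% at 0, 100, 200, 600, 800 and 1000 h, and 38.2 and 57.9% at 8 and 12 d.

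Averaged over the 7 chilling times, the log2 difference between LP and JB was −0.17 ± 0.15 for PRUPE_DAM1 (adjusted p = 0.324), 0.31 ± 0.35 for PRUPE_DAM2 (adjusted p = 0.46) and 0.26 ± 0.12 for PRUPE_DAM3 (adjusted p = 0.0429). The last was higher in LP at 5 of the 7 times, where 69.3% of all genes were called, and it missed the threshold with DESeq2 (0.24, adjusted p = 0.0783) and when many of the single libraries were left out. Over the 6 warm times it was −0.25 ± 0.12 for PRUPE_DAM1 (adjusted p = 0.0589) and −0.17 ± 0.16 for PRUPE_DAM3 (adjusted p = 0.331), so that only PRUPE_DAM2 was called, where 68.6% of all genes were. PRUPE_DAM1 passed there with DESeq2 (−0.28, adjusted p = 0.0344), and in chilling it passed without replicate 3 of every group (−0.42, adjusted p = 0.0445).

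The chilling changes from 0 h to 1000 h did not differ between LP and JB past the threshold for any of the 3 (differences of 1.08 ± 0.59, 1.05 ± 1.29 and 0.38 ± 0.46 for PRUPE_DAM1, PRUPE_DAM2 and PRUPE_DAM3, adjusted p = 0.16, 0.586 and 0.585). Of all genes 31.7% did. The changes to 1 d differed for 1 of 3 (39% of all genes), and those to 20 d for 1 of 3 (57.4%), PRUPE_DAM2 in both. For the change to 20 d, PRUPE_DAM1 had −1.23 ± 0.57 (adjusted p = 0.0591; −1.28 with adjusted p = 0.0373 by DESeq2) and PRUPE_DAM3 −0.80 ± 0.51 (adjusted p = 0.178). Between LP at 28 d and JB at 20 d, 1 of 3 was called, against 59.8% of all genes.

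The other DAM genes that the table names took another course in the warm. After 1000 h of chilling PRUPE_DAM4, PRUPE_DAM5 and PRUPE_DAM6 were all below their 0 h levels in JB and in LP, with a median log2 change of −2.64 in JB and −1.87 in LP. Of all genes 31.8% were called lower there in JB and 26.9% in LP. From 1000 h to the start of bloom all 3 were lower again, with a median of −3.93 in JB and −6.67 in LP, where PRUPE_DAM1 and PRUPE_DAM2 rose. Over all genes tested those medians were −0.03 and 0.02, held near 0 by the scaling of counts. The share of all genes called lower there is not given here.

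The shares of the 6 genes' reads shifted too, and a share can grow without a rise in level when other genes fall. PRUPE_DAM1, PRUPE_DAM2 and PRUPE_DAM3 together took 1.16 ± 0.069% (SD, n = 3) of the 6 genes' reads in JB at 0 h and 2.46 ± 0.75% at 1000 h. Their share was 23.6 ± 6.5% at 8 d and 33.2 ± 2.3% at 20 d. In LP it was 1.01 ± 0.27% at 0 h, 2.35 ± 0.59% at 1000 h, 42.7 ± 3.2% at 8 d and 53.8 ± 7.4% at 28 d. These are shares of reads, not scaled to gene length, and they too would carry any split of reads between the copies. The total they divide fell from 22236 reads in the 3 JB libraries at 0 h to 1023 at 20 d, and from 35070 in LP at 0 h to 776 at 28 d. In JB the mean of PRUPE_DAM4 was 508 CPM at 0 h and 20.1 at 20 d. For LP it was 679 CPM at 0 h and 10.4 at 28 d. At bloom PRUPE_DAM1, PRUPE_DAM2 and PRUPE_DAM3 made up 14.2, 8.93 and 10.1% of the reads in JB, and 21.6, 7.2 and 25% in LP. The change of PRUPE_DAM3 from 1000 h to bloom had not passed in either genotype.

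**Figure D3:**
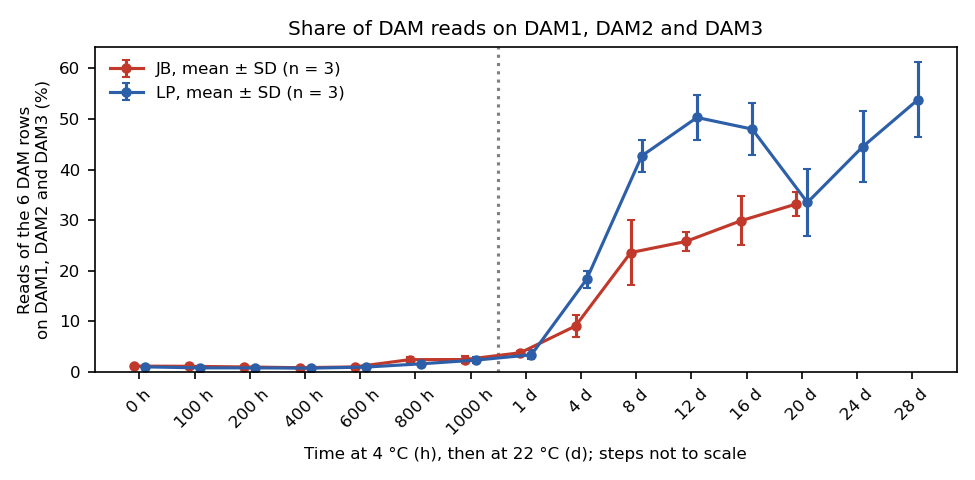
Share of the reads of the 6 named DAM genes that fell on PRUPE_DAM1, PRUPE_DAM2 and PRUPE_DAM3 (y axis, %), by time (x axis, h at 4 °C and then d at 22 °C, steps not to scale), as mean ± SD of 3 libraries. The share stayed under 4% up to 1 d at 22 °C and reached 33.2% in JB at 20 d and 53.8% in LP at 28 d.

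As a description over the 28 group means of log2 CPM, which share a scaling and a table, PRUPE_DAM1 and PRUPE_DAM2 had a Pearson correlation of 0.73. PRUPE_DAM3 had 0.08 with PRUPE_DAM1 and −0.11 with PRUPE_DAM2. Within the 14 chilling groups PRUPE_DAM1 and PRUPE_DAM3 had 0.58, and within the 14 warm groups 0.90. PRUPE_DAM1 and PRUPE_DAM2 had 0.71 within the chilling groups and 0.41 within the warm groups. The chilling value is limited by PRUPE_DAM2, which had 0 reads in 8 of the 42 chilling libraries. PRUPE_DAM1 had −0.63, −0.64 and −0.66 with PRUPE_DAM4, PRUPE_DAM5 and PRUPE_DAM6 over all groups, but 0.69, 0.84 and 0.86 within chilling.

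**Figure D4:**
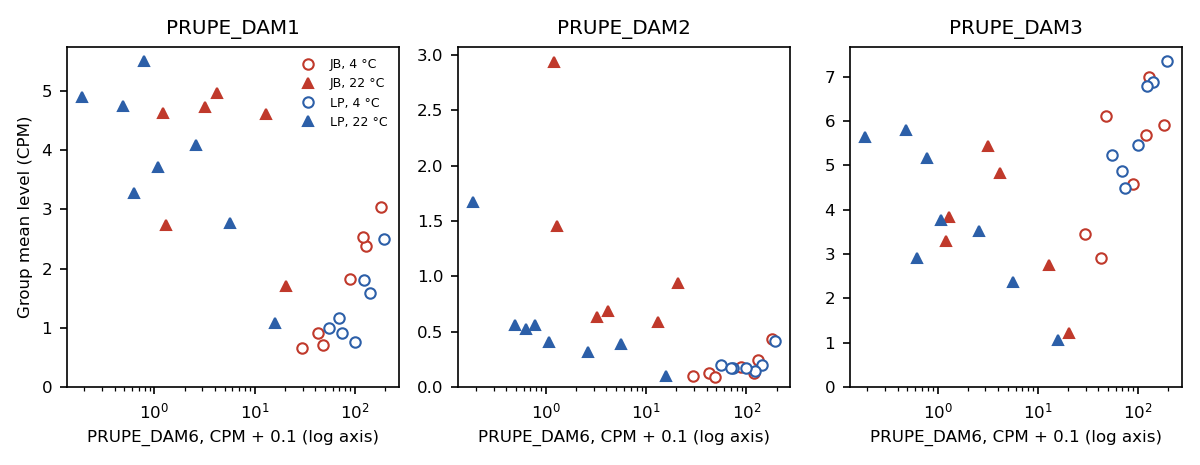
Group means of PRUPE_DAM1, PRUPE_DAM2 and PRUPE_DAM3 (y axes, CPM) against those of PRUPE_DAM6 (x axis, CPM + 0.1, log axis), 1 point for each of the 28 groups, with chilling and warm groups and the genotypes marked apart. On log2 CPM, PRUPE_DAM1 had a correlation of 0.86 with PRUPE_DAM6 over the chilling groups and −0.66 over all groups.

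Over all 28 groups ordered by level, the libraries of neighbouring groups overlapped in 27 of 27 cases for PRUPE_DAM1 and 26 of 27 for PRUPE_DAM2 and PRUPE_DAM3, so that single ranks carry little. The lowest and highest group means were 0.663 CPM (JB 1000 h) and 5.50 CPM (LP 16 d) for PRUPE_DAM1. For PRUPE_DAM2 they were 0.0938 CPM (JB 800 h) and 2.93 CPM (JB 20 d), and for PRUPE_DAM3 1.05 CPM (LP 1 d) and 7.36 CPM (LP 0 h).

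The genes whose group means were most like these, among 20853 genes, are known here by identifier alone. For PRUPE_DAM1 they were PRUPE_8G100700 (Pearson correlation 0.945 over the 28 groups) and PRUPE_3G246900 (0.916). PRUPE_8G100700 had 29.1 ± 1.8 CPM in JB at 0 h, 1.77 ± 0.36 at 1000 h and 18.9 ± 1.8 at 1 d (SD, n = 3). LP had 1.99 ± 0.22 and 6.77 ± 0.77 CPM at 1000 h and at 1 d.

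For PRUPE_DAM2 they were PRUPE_1G116100 (0.942) and PRUPE_6G335300 (0.931). PRUPE_1G116100 had 0.0374 ± 0.065 CPM in JB at 1000 h, 3.03 ± 0.50 at 1 d and 91.5 ± 0.93 at 20 d. LP had 0.0689 ± 0.060, 0.0257 ± 0.045 and 21.2 ± 3.0 CPM at 1000 h, 1 d and 28 d (SD, n = 3). For PRUPE_DAM3 the closest were less close, PRUPE_4G015600 (0.804) and PRUPE_1G045900 (0.756). PRUPE_4G015600 went from 22.5 ± 2.7 CPM at 1000 h to 16.8 ± 1.2 at 1 d in JB, and from 22.9 ± 0.58 to 14.8 ± 1.7 in LP.

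These picks depend on the measure of likeness. By Spearman correlation PRUPE_8G100700 and PRUPE_3G246900 still ranked 1 and 2 for PRUPE_DAM1, but on linear CPM they ranked 23 and 35. PRUPE_1G116100 ranked 9 for PRUPE_DAM2 by Spearman, 188 on linear CPM and 2154 over the chilling groups alone. PRUPE_4G015600 ranked 696.5 for PRUPE_DAM3 by Spearman and 7410 over the chilling groups, with a correlation there of 0.21, and 3 over the warm groups.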

How the data were processed

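RNA of floral buds was sequenced in 84 libraries, 3 for each of 28 groups that the labels define by genotype, treatment and time. Libraries were made with a stranded mRNA kit, per the labels' protocols. The values are raw read counts for each gene, as deposited, with no normalization. The submitters' processing notes name edgeR, STAR 2.6.0, Trimmomatic and FastQC 0.11.9. Not given in the sources used here are the counting tool, strand setting, annotation and genome build, and no sequence was used.

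Genes with low counts were left out by edgeR's filterByExpr (minimum count 10), which kept 21168 genes and left out 0.028% of the reads. Counts were scaled by TMM and tested with edgeR 4.0.16 (R 4.3.3, limma 3.58.1) in a quasi-likelihood fit over all 84 libraries with 56 residual degrees of freedom. Benjamini-Hochberg adjustment ran over all genes of a comparison. The standard error of a log2 change was derived from its test, as the size of the change divided by the square root of the F statistic. CPM used TMM-scaled totals, and log2 CPM a prior count of 2. The code was tested on simulated data. The condition set there on recovered changes left out genes at the lowest levels, so it does not cover genes as scarce as PRUPE_DAM1, PRUPE_DAM2 and PRUPE_DAM3.

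The members, lists and tests were chosen with earlier results of these data known. Besides the DAM genes, the text names for each member the 2 genes most like it over the group means, among genes that reach 1 CPM. The comparison of changes to 1 d was added after the data were seen. Replicate numbers did not pair libraries: in 0 of 62 comparisons of 2 groups did all 3 correlations of deviations exceed 0.1. Alternatives were DESeq2 1.42.0, its size factors in edgeR, no filter, a fit of the compared groups only, a replicate block, and leaving out each replicate number or library. Leaving out a single library kept the trended dispersion of the full fit. The RefSeq gene table given (26412 genes) matched 0 identifiers.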

Additional observations from a re-analysis of the deposited data

Results flagged for a closer look

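Both results of PRUPE_DAM2 in which the genotypes' responses to warming differed by a test of the difference itself are listed here. The change from 1000 h to 20 d differed between LP and JB by a log2 value of −3.45 (adjusted p = 0.0127), with JB going from 0.102 to 2.93 CPM and LP from 0.200 to 0.521 CPM. The change from 1000 h to 1 d differed by −4.22 (adjusted p = 0.00998), with JB going from 0.102 to 0.940 CPM and LP from 0.200 to 0.1 CPM. Both rest on few reads at 1000 h, 3 in all in JB and 7 in all in LP. Both lost their call without LP 1000 h replicate 3 and without replicate 1 of every group. The comparison of changes to 1 d was added after the data were seen. At 20 d JB had reached its start of bloom, and LP, which reached it at 28 d, had not. With each genotype at its start of bloom the log2 difference, −0.79, did not pass. PRUPE_DAM2 passed the filter on low counts through warm libraries alone. The part of depth in both differences was not tested.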

How the results depend on the processing

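All values here are log2 differences unless named as correlations. The replicate block changed no call: the PRUPE_DAM2 rise from 1000 h to 20 d in JB was 4.72 with it. For PRUPE_DAM3, JB 20 d against 1000 h was 0.031 by DESeq2 and 0.0394 with DESeq2 size factors, against −0.05, and the chilling mean was 0.24 and 0.25 (adjusted p = 0.0783 and 0.0523). For PRUPE_DAM1, the warm mean was −0.28, −0.28 and −0.25 by DESeq2, with its size factors and in the fit of the compared groups only, and the difference to 20 d −1.28, −1.29 and −1.25, all past the threshold. The cause was not tested. Correlations turned sign for PRUPE_DAM1 with PRUPE_DAM3 by Spearman (−0.0181), for PRUPE_DAM1 with PRUPE_DAM4, PRUPE_DAM5 and PRUPE_DAM6 within chilling (0.69, 0.84 and 0.86), and for PRUPE_DAM2 with PRUPE_DAM3 within chilling (0.46) and within the warm (0.37). In chilling PRUPE_DAM2 was near its counting limit.

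Leaving out a replicate number or a library gave these ranges. For PRUPE_DAM1 they were −1.82 to −0.75 for LP 1000 h against 0 h, −0.31 to 0.87 for LP 1 d against 1000 h, −0.42 to −0.0682 for the chilling mean, −0.39 to −0.17 for the warm mean, −2.33 to −0.37 for the difference to 20 d, and −0.0048 to 0.19 at bloom. For PRUPE_DAM2 they were −2.86 to −1.30 for JB 1000 h against 0 h, −0.26 to 0.64 for the chilling mean, −4.40 to −2.48 for the difference to 20 d, and −0.9985 to −0.34 at bloom. For PRUPE_DAM3 they were −1.15 to −0.30 for JB and −0.89 to 0.12 for LP at 1000 h against 0 h, −0.40 to 0.16 for JB at 20 d, −1.11 to −0.62 for LP at 20 d, −0.13 to 0.48 for LP at 28 d, 0.18 to 0.33 for the chilling mean, −0.59 to 1.11 for the difference in chilling, and 0.71 to 0.93 at bloom. Without a library, a group of 2 was assumed to vary as the others do. Depth limits PRUPE_DAM2 most, with a median of 4 reads per library.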
